A study of Mus musculus with 3 samples.

Results

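The comparison described here set the gastrocnemius muscle array of mice fed a high-fat diet with sodium ferrous citrate (HF + SFC) against that of mice fed the high-fat diet alone (HF), for genes with functions outside mitochondria. Genes were read on their brightest probe set (a group of short probes against 1 transcript, highest mean log2 signal over the arrays) among probe sets with 1 gene symbol. A gene was kept where this probe set lay above the 75th percentile of its array, 389 MAS5 units in HF and 388 in HF + SFC, on either of these arrays. Of 18193 genes measured, 6891 were kept, 416 of them were on a list of mitochondrial genes and were set aside, and 6475 remained. The value just inside the limit was that of Ctla2b (389 in HF and 342 in HF + SFC), and just outside it that of Nwd1 (389 and 299).

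Male C57BL/6J mice entered the study at 6 weeks of age and were fed for 15 weeks. The age in the sample labels is 21 months, which is longer than these times allow. The Control diet held 10% of its energy as fat and the HF and HF + SFC diets 60%, and the HF + SFC diet also held 0.023% (w/w) sodium ferrous citrate, an iron salt. Each group was measured on 1 array of a mix of all its samples, so no difference between groups has a replicate check, and statistical tests were not possible. The number of animals in a pool was not in the labels. The Control array was used to choose the brightest probe set and is printed beside the others. Where 3 signals follow each other they are those of Control, HF and HF + SFC, in MAS5 units, and a signed value in brackets is the log2 ratio of HF + SFC to HF. Signals of different genes come from different probes and are not compared.

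Gastrocnemius is a mixed muscle, in which slow fibres rely on oxidative metabolism and fast fibres on glycogen and glycolysis, each with its own myosins, troponins and calcium pump. Growth hormone and several cytokines act in muscle through JAK kinases and STAT factors, and their signal is damped by SOCS proteins, which the STAT factors themselves induce. Iron enters cells through transferrin receptor and metal transporters, is stored in ferritin and leaves through ferroportin, and iron regulatory proteins adjust these steps.

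The labelled tissue was checked against its markers, and all 18 fast fibre genes listed and 14 of 15 slow fibre genes passed the signal filter, whereas none of 9 liver plasma protein genes did. The 3' to 5' ratio of control probe sets, a measure of RNA integrity, was 0.820 to 0.842 for Gapdh over the arrays, and for beta-actin it read 1.09 on the Control array, 1.52 on the HF array and 1.15 on the HF + SFC array. The part of this difference in any result was not tested. HF entered both the ratio of HF + SFC to HF and that of HF to Control, so a chance low or high value on the HF array moves them in opposite directions, and they are only given side by side.

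Signals of HF + SFC and HF were close for most genes. Of the 6475 genes, 3416 had a higher and 3059 a lower signal in HF + SFC, the median log2 ratio was 0.01, and the values from the 5th to the 95th percentile lay between -0.32 and 0.30. At least 1.5-fold higher were 33 genes (0.51%) and at least 1.5-fold lower 58 genes (0.896%). At the smaller threshold of 1.2-fold, 422 genes were higher (6.52%) and 461 lower (7.12%). Genes near the signal limit made up much of the first pair of counts, since 24 of the 33 higher genes and 26 of the 58 lower genes passed the filter on 1 of the arrays only and so had to differ. In the dimmest of 10 equal bins of signal the SD of the log2 ratio was 0.31 and 21 genes were at least 1.5-fold higher and 24 lower. In the brightest bin the SD was 0.13, the median 0.05 and no gene reached 1.5-fold.

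**Figure D1:**
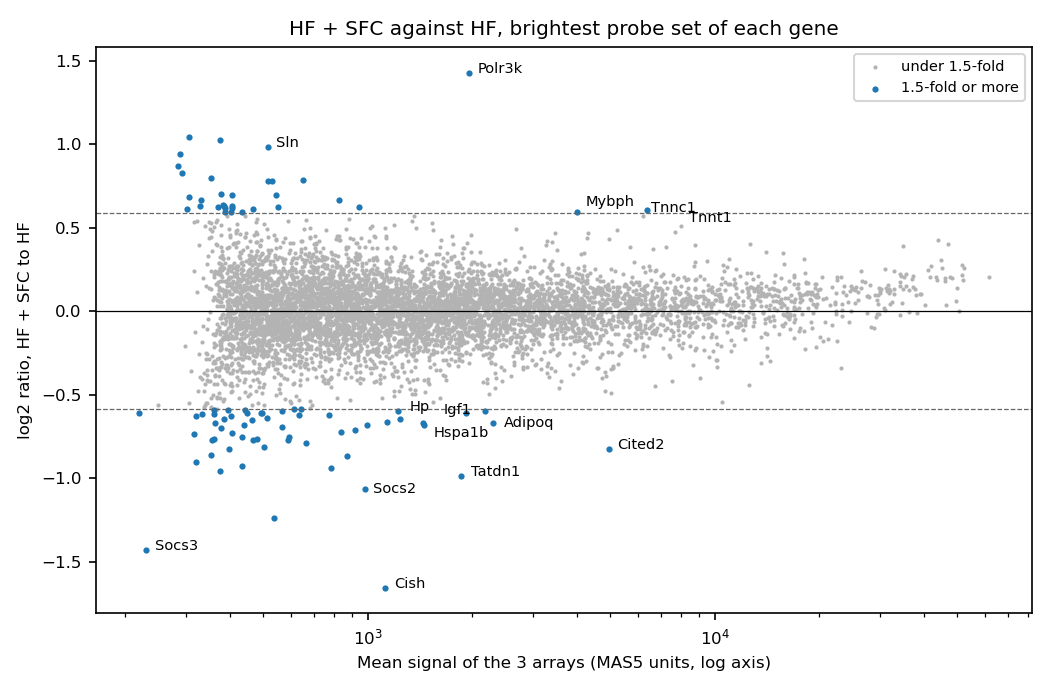
Log2 ratio of HF + SFC to HF (vertical axis) against the mean signal of the 3 arrays (MAS5 units, log axis) for 6475 genes, 1 point per gene, with 1 pooled sample per array. Blue points lie at or past 1.5-fold (dashed lines), and most of them sit at low signal, while Cish, Cited2, Tatdn1 and Polr3k lie apart from the other genes of like signal.

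Other probe sets of the same gene gave a check that the brightest one did not use. Of the 6475 genes, 2360 had at least 1 further probe set above the 75th percentile, 3554 such probe sets in all, and in 1085 genes (45.97%) every one of them had the same direction as the brightest. The log2 ratios of bright probe sets of 1 gene had a within-gene SD of 0.19 (1.14-fold), as large as the SD of 0.20 over all genes. The direction was shared by 55.37% of the further probe sets, by 63.32% where the brightest was past 1.2-fold (221 of 349), and by 15 of 20 where it was past 1.5-fold. Of the 33 higher genes only Polr3k and 5031439G07Rik had a bright further probe set, and in neither did all of these share the direction, since that of 5031439G07Rik was lower (-0.08) and those of Polr3k lay on both sides of 0. Among the 58 lower genes, 13 had one and in 11 all directions were shared. Every bright probe set was past 1.5-fold in 4 genes, Socs2, Cited2, Hspa1b and Iigp1, all lower in HF + SFC.

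**Figure D2:**
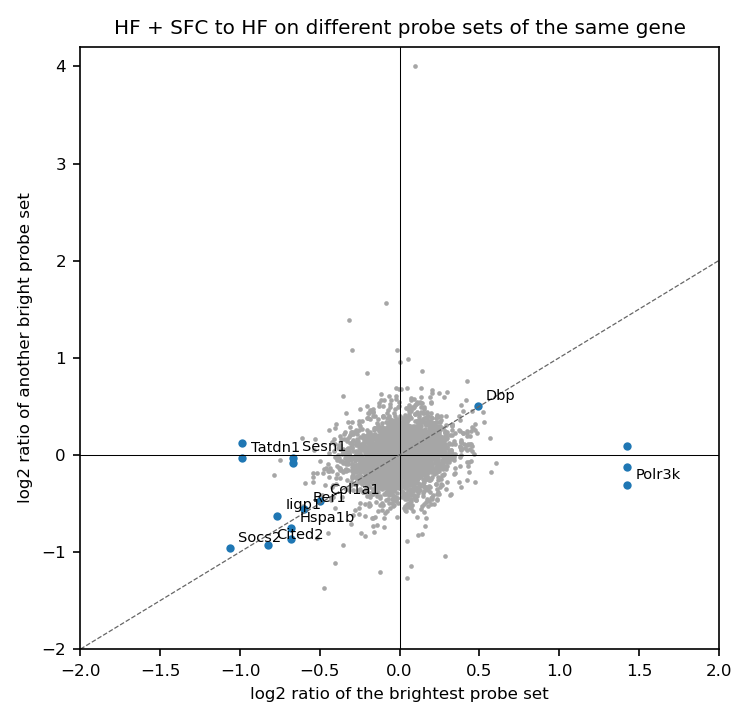
Log2 ratio of HF + SFC to HF on a further bright probe set (vertical axis) against that on the brightest probe set of the same gene (horizontal axis), 3554 probe sets of 2360 genes. Points on the dashed line have equal ratios, as those of Socs2, Cited2, Hspa1b, Iigp1 and Dbp nearly do, whereas Polr3k and Tatdn1 depart from it.

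Feedback inhibitors of JAK-STAT signalling were among the genes with the lowest ratios of HF + SFC to HF. Cish, which encodes an inhibitor induced by STAT5, had a signal of 1107 (Control), 2008 (HF) and 638 (HF + SFC), a log2 ratio of -1.65 (0.318-fold) and the lowest of all 6475 genes. Socs2, an inhibitor of growth hormone receptor signalling, had 968, 1429 and 684 (log2 ratio -1.06), and its other bright probe set gave 777, 1128 and 581 (-0.96). In both genes HF + SFC was the lowest of the arrays and HF the highest. Socs3, an inhibitor of cytokine signalling through the shared receptor subunit gp130, had 163, 449 and 167 (-1.43). It passed the filter through HF alone and so had to differ, but its dimmer probe sets were also lower, with HF and HF + SFC signals of 336 and 153 on one and 122 and 30.5 on the other.

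The sequences around the start sites of Cish and Socs3 are shown because STAT factors bind the spaced palindrome TTCNNNGAA, whose matches are in capitals. Both stretches are RefSeq sequence of build GRCm38.p6, read in the direction of the gene. That of Cish, chr9:107296654-107296683 on the plus strand, holds matches that begin at bases +1 and +12 from the start, and that of Socs3, chr11:117969502-117969531 on the minus strand, a match that begins at base -154.
Cish: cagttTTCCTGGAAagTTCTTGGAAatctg
Socs3: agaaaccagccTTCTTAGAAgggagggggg
Among 32851 windows of 300 bases around starts (250 before and 50 after), 8.3% held at least 1 match and 0.457% at least 2. The windows of Igf1 and Cited2 held none, and no window was available for Socs2. A match is only a description of the letters.

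The genes upstream of these inhibitors had nearly equal signals on the HF and HF + SFC arrays on their brightest probe sets, with larger differences on some others. Ghr, the growth hormone receptor, had 15473, 14541 and 14251 in Control, HF and HF + SFC (log2 ratio -0.03, and 0.04 and 0.14 on its other probe sets), and Jak2, its kinase, had 1718, 1435 and 1451 (0.02, and 0.29 on its other probe set). Stat5b, which carries the signal to the nucleus, had 6217, 4993 and 5314 (0.09, but -0.23 on its other probe set) and Stat3 had 1059, 1021 and 1047 (0.04, and 0.18 on its other probe set). The gp130 gene Il6st had 3412, 3026 and 3105 (0.04), with other probe sets that ranged from -0.57 to 0.30. Targets and binding proteins of the pathway differed among themselves. Igf1, the growth factor made under growth hormone, had 1797, 1720.4 and 1183 (-0.54), with -0.19 on its other bright probe set. Bcl6, a repressor that STAT5 is known to silence, had 4295, 4251 and 3282 (-0.37), but -0.06 on its other probe set. Both were lower in HF + SFC than in either other group on the brightest probe set. Igfbp3, a carrier of IGF1 in blood, was the highest of the list, with 429, 428 and 523 (0.29, and 0.21 on its other probe set). In the whole list of 23 genes, 14 were higher and 9 lower with a median of 0.02 (-0.0045 with the mean of bright probe sets). Past 1.5-fold were 3 genes (Cish, Socs2 and Socs3), all lower, beside 0.896% of all genes. Of these, Socs3 passed the filter through HF alone and so had to differ. Where both arrays had to pass, 12 genes were higher and 8 lower, with a median of 0.02.

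**Figure D3:**
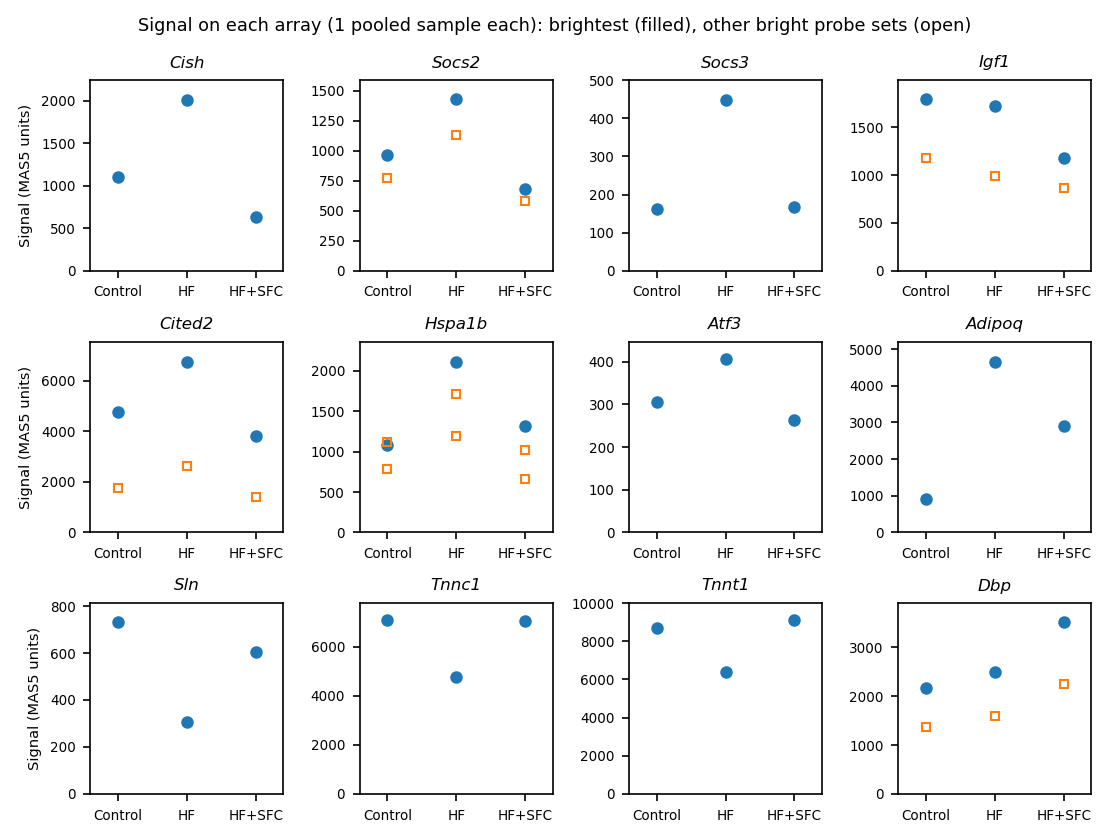
Signal (MAS5 units, axis from 0) on the Control, HF and HF + SFC arrays for 12 genes, 1 pooled sample per array. Filled circles are the brightest probe set and open squares other bright probe sets of the same gene; Cish, Socs2, Cited2 and Atf3 had their lowest value in HF + SFC, and Sln, Tnnc1 and Tnnt1 their lowest in HF.

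Several regulators outside this pathway were also lower in HF + SFC. Cited2, a partner of the CBP and p300 coactivators that competes with hypoxia-inducible factors for them, had 4759 (Control), 6724 (HF) and 3794 (HF + SFC) (-0.83), and 1740.4, 2637 and 1382 on its other probe set (-0.93). Tnfrsf12a, the receptor of the cytokine TWEAK, had 1734, 2488 and 1635 (-0.61, and -0.53 on its other probe set). Both probe sets of each gene thus had their highest value in HF. Cited4, a relative of Cited2, had 289, 206 and 396 (0.94), but passed the filter in HF + SFC alone, and its other probe set, below the array median at 35.7 in HF and 28.2 in HF + SFC, gave -0.34. Hypoxia-related genes as a list of 17 showed no common direction, with 8 higher, 9 lower and a median of -0.003. Egln3, an oxygen-sensing prolyl hydroxylase, had 1356, 1616 and 1221 (-0.40, and -0.55 on its other probe set), and Vegfa, the angiogenic factor, had 1959.9, 1718 and 1402 (-0.29 and -0.11). Hif1a itself had 1545, 1627 and 1614 (-0.01).

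Immediate early genes, which cells transcribe within minutes of a stimulus, lay below HF in the HF + SFC group for 23 of 29 genes (median -0.08). At least 1.2-fold lower were 8 of them, beside 7.12% of all genes, and 1 was at least 1.2-fold higher. The 8 include Socs3 and Atf3, which passed the filter through HF alone. Where both arrays had to pass, 20 of 25 were lower, with a median of -0.06. Socs3, which is also on this list, had its lowest ratio. Next lowest was the stress factor Atf3, with 307, 407 and 264 in Control, HF and HF + SFC (-0.63). It passed the filter on HF alone and so had to differ. Ccn1, a matricellular protein, had 1206, 1719 and 1242 (-0.47, and -0.31 on its other probe set), and Ier5 had 826, 894 and 652 (-0.46). The most widely used members of the list differed little, with 448, 446 and 407 for Fos (-0.13) and 492, 470.1 and 464 for Egr1 (-0.02). The highest were the factor Klf5 (526, 559 and 721, log2 ratio 0.37) and Rhob, a small GTPase (3509, 3637 and 4281, 0.24).

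Among chaperone genes the inducible HSP70 genes had the lowest ratios. Hspa1b had 1087 (Control), 2117 (HF) and 1322 (HF + SFC) (-0.68), and its other bright probe sets had log2 ratios of -0.76 and -0.86. Hspa1a had 962, 1284 and 800.4 (-0.68). These neighbouring genes encode nearly the same HSP70 protein, so their probe sets can bind both transcripts and the signals cannot be assigned to either gene with certainty. The likeness extends to their promoters, shown here with the heat shock element letters GAANNTTC in capitals, RefSeq build GRCm38.p6, minus strand, chr17:34972242-34972271 for Hspa1a and chr17:34959324-34959353 for Hspa1b. Each match begins at base -104 from the start.
Hspa1a: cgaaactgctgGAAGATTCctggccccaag
Hspa1b: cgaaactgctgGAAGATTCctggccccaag
GAANNTTC or its reverse arrangement TTCNNGAA was present in 15.1% of all windows. Over 38 chaperone genes 19 were higher and 19 lower, with a median of -0.0002 on the log2 scale. Next lowest were the co-chaperones Dnajb4 (4289, 5435 and 4559, -0.25) and Dnaja1 (1762, 1964 and 1653, -0.25), each with all bright probe sets lower in HF + SFC. The small heat shock protein Cryab was the highest, with 32030.4, 33139 and 38282 (0.21, and 0.19 on its other bright probe set), and a probe set below the array median (35.7 in HF and 22.8 in HF + SFC) gave -0.65. Of 27 genes of the unfolded protein response of the endoplasmic reticulum, 12 were higher and 15 lower (median -0.04). Hyou1, a chaperone there, had 775, 674 and 1069 (0.67), with 0.52 and -0.44 on dimmer probe sets, while the chaperone Hsp90b1 had 4498, 6042 and 4818 (-0.33).

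Slow fibre genes exceeded HF in the HF + SFC group and had the highest median of the 40 lists with members. Of 14 genes 12 were higher and 2 lower, the median log2 ratio was 0.36 (1.28-fold), and 8 were at least 1.2-fold higher, beside 6.52% of all genes. The 8 include Sln, which passed the filter through HF + SFC alone. The 12 include Myh2, the IIa myosin heavy chain, which is a fast type, with 35478, 32879 and 38417 (0.22). Relative to Control the median of the same list in HF was -0.44. Sln, which encodes sarcolipin, a small inhibitor of the calcium pump, had 732 (Control), 307 (HF) and 606 (HF + SFC) (0.98), although it passed the filter in HF + SFC alone and so had to differ. Tnnc1, the slow troponin C gene, had 7094, 4754 and 7059 (0.57). The slow troponin T gene Tnnt1 had 8717, 6403 and 9130.4 (0.51). For Myh7, the slow myosin heavy chain, the values were 8784, 6099 and 8490.3 (0.48). In these troponin and myosin genes HF was the lowest array and HF + SFC lay near Control. In bulk tissue fewer cells or fibres of a type and less RNA per cell cannot be told apart. The list was not uniform, as Myoz2 had 10173, 6409 and 7006 (0.13), Mybpc1 had 20989.7, 18733 and 19049 (0.02, with 0.01 and 0.36 on its other probe sets), Casq2, the calsequestrin of slow fibres, had 965, 1486 and 1181 (-0.33), and Myom3 had 366, 431 and 329.5 (-0.39). Myom3 passed the filter through HF alone and so had to differ. Atp2a2, the slow fibre calcium pump, was higher on each of its 3 bright probe sets (0.23 to 0.45), whereas Tpm3 had log2 ratios of 0.37, 0.40 and -0.28 on different probe sets.

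Fast fibre genes were also higher, in 18 of 18 cases, with a median of 0.20 (1.15-fold), but these genes are among the brightest and after quantile normalization 12 were higher, 4 lower and the others tied, with a median of 0.02. The brightest bin of all genes had a median of 0.05 in the same direction. Tnnc2, the fast troponin C gene, had 36089 (Control), 30006 (HF) and 39399 (HF + SFC) (0.39), and Atp2a1, the fast fibre calcium pump, had 45050.0, 40211 and 49738 (0.31). Actn3, the fast fibre alpha-actinin, had 52417, 46351 and 56212 (0.28), and HF was the lowest array for each of these genes. The smallest ratios were those of Myoz3 (3843, 4243 and 4328, 0.03) and Myh1, the IIx myosin heavy chain (37356, 37131 and 39778, 0.10). Over 34 genes of the sarcomere and Z-disc the median was 0.06 (25 higher and 9 lower). Among these Ttn, which encodes the giant spring protein titin, was higher on 5 of 5 bright probe sets (0.21 to 0.67), and skeletal actin Acta1 had 44954, 41541 and 49802 (0.26). The stretch-responsive genes Xirp1 (3787, 4054 and 3036, -0.42) and Csrp3 (5432, 5785 and 4642, -0.32) had the lowest ratios of that list. Mybph, a myosin binding protein named after its values were seen, had 1459.8, 5407 and 8145 (0.59), and so was higher in HF than in Control and highest in HF + SFC.

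Among 36 genes of excitation and calcium handling the median was 0.06 (23 higher and 13 lower). The calcium entry sensor Stim1 had 2657, 2479.9 and 3219 (0.38, but -0.03 on its other probe set) and Ryr1, the calcium release channel, had 33256, 30049 and 35457 (0.24, and 0.39 on its other probe set). Camk2d, a calmodulin-dependent kinase, was lower on its brightest probe set (1430.0, 2019 and 1549.5, -0.38) and slightly higher on another (0.10). Genes of the neuromuscular junction differed little, with 7 of 11 higher and a median of 0.04, and the acetylcholine receptor subunit Chrna1 had 530.5, 471 and 572 (0.28). Of 23 myogenic and satellite cell genes 11 were higher and 12 lower (median -0.02). None of them reached 1.2-fold in either direction, and Myod1, the myogenic factor, had 536, 577 and 531 (-0.12).

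**Figure D4:**
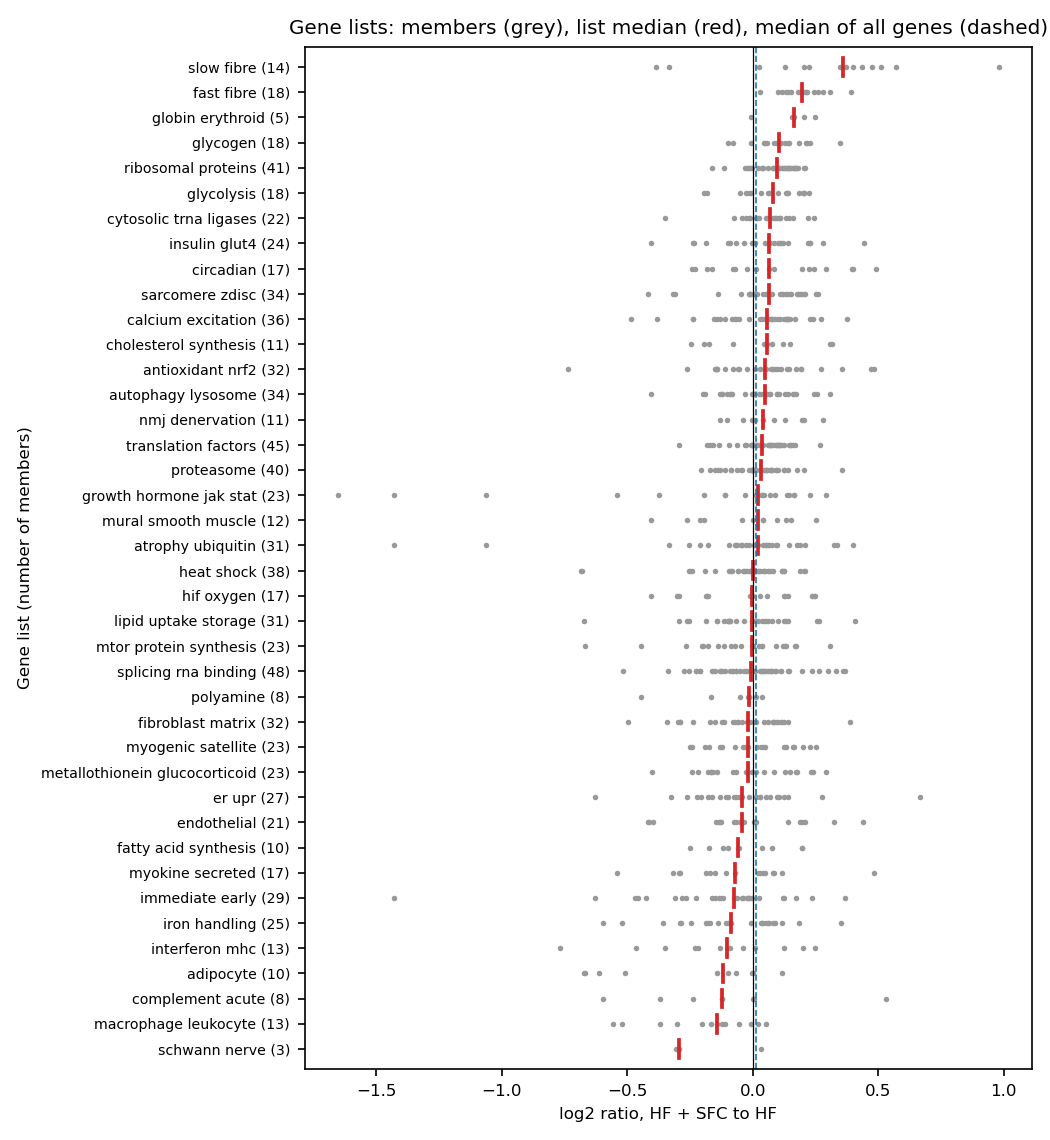
Log2 ratio of HF + SFC to HF (horizontal axis) for the members of 40 gene lists (rows, number of members in brackets), 1 pooled sample per array. Grey points are genes, red bars list medians and the dashed line the median of all 6475 genes; slow fibre genes have the highest median at 0.36, followed by fast fibre genes at 0.20, and the single genes furthest to the left are Cish, Socs3 and Socs2.

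Genes of iron handling showed a small and uneven difference. Of 44 genes written for the list 41 were measured and 25 passed the filter, of which 11 had a ratio above HF and 14 below it (median -0.09). The median was -0.05 with the mean of bright probe sets, -0.05 where both arrays had to pass and -0.14 with the array median as the limit. At least 1.2-fold lower were 5 (7.12% of all genes) and at least 1.2-fold higher was 1 (6.52%). The 5 include Cd163, which passed through HF alone and so had to differ. Genes of uptake differed among themselves. Tfrc, the transferrin receptor, had 10076 (Control), 10053 (HF) and 10707 (HF + SFC) (0.09, and 0.00 on its other probe set). Slc11a2, the transporter DMT1, had 413, 389.8 and 497 (0.35), close to the signal limit. The metalloreductase Steap4 was lower, with 1372, 1503 and 1230.4 (-0.29). Dimmer uptake genes that did not pass the filter went both ways. Lower in HF + SFC than in HF were Slc39a14 (283, 286 and 237), Slc39a8 (64.0, 43.8 and 39.7) and Steap3 (190.4, 284 and 179). Higher were Steap2 (26.0, 45.9 and 75.1), Cybrd1 (87.8, 65.1 and 86.2) and Steap1 (41.2, 28.0 and 35.8). Among storage genes Fth1, the ferritin heavy chain, had 46118, 45958 and 47211 (0.04, and 0.19 on its other probe set, but -0.11 after quantile normalization) and Ncoa4, which delivers ferritin to lysosomes, had 2091, 2463 and 2320.3 (-0.09). The iron chaperones Pcbp1 (9382, 9131 and 9096, -0.01) and Pcbp2 (8237, 8277 and 8516, 0.04) had nearly equal signals on these arrays, although other probe sets of Pcbp2 gave -0.19 and 0.16.

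Export and heme transport genes lay lower on their brightest probe sets. Slc40a1, which encodes ferroportin, had 3885, 4223 and 3733 (-0.18) but -0.003 on its other probe set. Cp, the ferroxidase ceruloplasmin, had 549, 543 and 482 (-0.17). With probe sets marked as binding several transcripts left out, the log2 ratio of Cp was 0.26. The heme exporters Flvcr1 (1099.7, 1447 and 1131, -0.36) and Abcg2 (1677, 1959 and 1608, -0.28) and the heme transporter Slc48a1 (1970.2, 2002 and 1759, -0.19, and -0.10 on its other probe set) had their highest value in HF. Of the heme breakdown genes Hmox2 had 2714, 2562 and 2621 (0.03) and Blvra 859.6, 738 and 766 (0.05), while the inducible heme oxygenase Hmox1 was dim (209, 130 and 88.1) and did not pass the filter. Regulators were split. Ireb2, an iron regulatory protein, had 1123, 1085 and 1233 (0.18) and Aco1, the other, had 1497, 1811 and 1692 (-0.10). Fbxl5, the ubiquitin ligase subunit that removes these proteins when iron is present, had 1533, 1846 and 1559 (-0.24).

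Genes of the BMP and hemojuvelin branch of iron sensing that passed the filter differed by at most 0.12 on the log2 scale. Below the filter, Tmprss6 (457, 331 and 210) and Tfr2 (65.5, 138 and 112.5) had lower signals in HF + SFC than in HF. Hjv, which encodes hemojuvelin, had 22814, 24362 and 26449.5 (0.12, and 0.01 on its other probe set), Hfe had 1225, 1168 and 1219 (0.06), the ligand Bmp6 had 456, 404 and 426 (0.08) and the hemojuvelin partner Neo1 had 2109, 1879.5 and 1965 (0.06). The remaining members were the scavenger receptor Lrp1 (1064, 1123 and 1021, -0.14) and the iron-sulfur protein gene Cisd2 (2749.8, 2621 and 2437, -0.10, and -0.28 on its other probe set). The lowest ratios of the list were those of Hp and Cd163, which bind and take up free haemoglobin. Hp, the haptoglobin gene, had 317, 2940.3 and 1945 (-0.60), and Cd163, the macrophage receptor of haptoglobin, had 333, 461 and 322 (-0.52), the latter through HF alone. Haptoglobin is also made by fat tissue, and Cd163 is on the macrophage list too. The markers of both cell types were lower in HF + SFC, with medians of -0.12 and -0.14, and their part in the result was not tested. The other 23 genes lay between -0.36 and 0.35. Myoglobin (Mb), the oxygen store of muscle and itself a heme protein, had 41623, 38734 and 44689 (0.21).

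**Figure D5:**
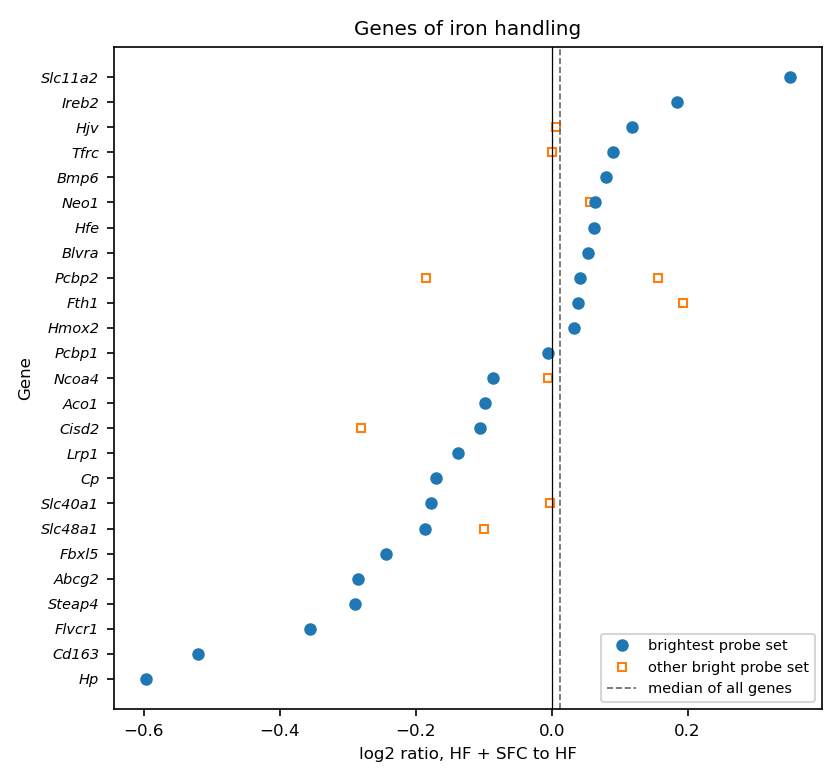
Log2 ratio of HF + SFC to HF (horizontal axis) for the 25 genes of iron handling (rows), 1 pooled sample per array. Each circle is a gene's brightest probe set, squares are other bright probe sets and the dashed line the median of all genes; Hp at -0.60 and Cd163 at -0.52 are lowest and Slc11a2 at 0.35 is highest.

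Most markers of fat cells had their highest signal in HF, with HF + SFC and Control below it. Of 10 adipocyte genes that passed the filter 8 were lower and 2 higher, the median log2 ratio was -0.12, and 3 were at least 1.5-fold lower, beside 0.896% of all genes. The 3 include Lep, which passed through HF alone and so had to differ. Where both arrays had to pass, 7 of 8 were lower, with a median of -0.12. Set against Control, HF had the higher signal in 16 of the 17 markers measured, with or without the filter, and the median was 0.90. Adipoq, the hormone adiponectin, had 901 (Control), 4637 (HF) and 2915 (HF + SFC) (-0.67). Cidec, a lipid droplet protein, had 159, 689 and 432 (-0.67), and Lep, which encodes leptin, had 45.8, 592 and 387 (-0.61), the latter above the limit in HF alone. In these genes HF + SFC lay between HF and Control. Fabp4, the fatty acid binding protein of adipocytes and capillaries, had 21626, 26497 and 25306 (-0.07, and -0.37 on its other probe set), and Car3 had 47691, 51953 and 51978 (0.00, with -0.02 and 0.96 on its other probe sets). Of all 17 markers 13 had the lower signal in HF + SFC, the summed signal was 81890 (Control), 98866 (HF) and 94976 (HF + SFC), of which the 3 brightest genes gave 89.9% in HF, and 1, Ucp1, lay below the array median on each array. Cdo1, a cysteine dioxygenase abundant in fat and liver and among the 12 lowest genes of all, had 171, 685 and 377 (-0.86). It too passed the filter through HF alone and so had to differ.

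Macrophage and leukocyte markers were lower in HF + SFC in 11 of the 13 that passed the filter, with a median of -0.14. The filter used the HF array and not Control, so the 13 cannot be set against Control, and of all 32 measured markers 26 were higher and 6 lower in HF than in Control. The class II antigen presentation gene H2-Ab1 had 473, 631 and 428 (-0.56) and H2-Eb1 had 491, 617 and 500.4 (-0.30). The complement gene C1qb, a macrophage marker, had 242, 453 and 351 (-0.37) and passed through HF alone. The general markers Csf1r (843, 1045 and 1039, -0.01) and Lyz2 (813, 1039 and 999, -0.06) hardly differed between HF and HF + SFC. Over 32 measured markers 21 were lower, the median was -0.12, their summed signal was 12372, 15582 and 14453 (40.5% of it from the 3 brightest genes in HF), and 5 lay below the median on each array, among them the T cell gene Cd3e and the B cell gene Cd79a. Interferon-responsive and class I genes pointed the same way in 9 of the 13 that passed the filter (median -0.10). Of all 29 measured, 17 were lower and 12 higher in HF + SFC (median -0.09). Iigp1, an interferon-induced GTPase, had 542, 805 and 472 (-0.77, and -0.63 on its other probe set). Each bright probe set of B2m (-0.23 and -0.38), of H2-D1 (-0.19 to -0.63) and of H2-K1 (-0.10 to -0.34) was lower too, though class I genes are alike and may share probes. Rsad2, another interferon-induced gene, had 625, 681 and 809 (0.25).

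Matrix genes split in HF + SFC against HF into 14 higher and 18 lower, with a median of -0.02. Of all 35 measured, with or without the filter, 33 were higher in HF than in Control (median 0.30). Col1a1, the main chain of type I collagen, had 968, 1883 and 1335 (-0.50, and -0.47 on its other probe set), and Dpt, a matrix protein, had 2511, 3998 and 3153 (-0.34). Sparc, a collagen-binding glycoprotein, had 7975, 12554 and 10273 (-0.29, and -0.20 on its other probe set). The tendon proteoglycan Fmod was highest, with 5106, 7527 and 9839 (0.39), but its further probe sets ranged from -0.34 to 0.13. Of the same 35 genes, 21 had the lower signal in HF + SFC and 14 the higher (median -0.04), and the summed signal was 108770, 137910 and 136040, of which the 3 brightest genes gave 44.5% in HF. Endothelial genes went both ways (9 higher and 12 lower, median -0.04). Cd34 had 969.8, 1365 and 1038 (-0.40), while the VEGF receptor gene Flt1 had 1185, 944 and 1282 (0.44, and at least 0.11 on its other probe sets). Of 11 Schwann cell and nerve genes measured, 6 were higher and 5 lower in HF + SFC (median 0.03), and 3 passed the filter. Mbp, a myelin protein gene of Schwann cells, was lower on each of its 4 bright probe sets. The brightest went from 2618 in HF to 2117 in HF + SFC (-0.31). Pmp22, another myelin gene, had 2844, 3369.9 and 2752 (-0.29), while Cnp had 958, 785 and 803 (0.03). For the results on muscle genes above, the part of these marker shifts was not tested.

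Genes of carbohydrate use had medians slightly above 0, which were smaller under some of the alternatives. Glycolysis genes had a median of 0.08 (12 of 18 higher), which was 0.00 with 8 higher, 8 lower and the others tied after quantile normalization. Pfkm, the muscle phosphofructokinase, had 38127 (Control), 30037 (HF) and 35085 (HF + SFC) (0.22), and the lactate and pyruvate transporter Slc16a1 had 5659.6, 5058 and 4423 (-0.19). Glycogen genes had a median of 0.11 (15 of 18 higher), which was 0.05 with 11 higher and 7 lower both after quantile normalization and with the mean of bright probe sets. Gsk3a, a kinase that inhibits glycogen synthase, had 5260.1, 3326 and 4238 (0.35), the synthase Gys1 had 4553, 3579.7 and 4069 (0.18), and Pygm, the muscle phosphorylase, had 38492, 33906 and 39267 (0.21). HF had the lowest signal in each of these. Insulin signalling and glucose transport genes had a median of 0.07 (15 of 24 higher), which was 0.02 with 12 higher and 12 lower with the mean of bright probe sets and 0.0083 with 15 higher and 14 lower with the array median as the limit. Slc2a4, the insulin-responsive glucose transporter GLUT4, had 12772, 11298 and 10563 (-0.10) but 0.19 on its other probe set, and Tbc1d1, a regulator of its traffic, had 1072, 1259.5 and 951 (-0.41).

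Genes of lipid uptake and storage showed no common direction, with 14 higher and 17 lower and a median of -0.004. Plin5, a lipid droplet protein of oxidative tissue, had 1622, 1828 and 2426 (0.41, and 0.07 on its other probe set), and was highest in HF + SFC. Bscl2, which encodes seipin, had 1324, 1551 and 1266 (-0.29). Dgat2, an enzyme of triglyceride synthesis, had 1253, 1834 and 1539 (-0.25, and -0.28 on its other probe set). Of 10 genes of fatty acid synthesis 4 were higher and 6 lower, and the desaturase Scd1 had 4706, 6231 and 5246 (-0.25). Cholesterol synthesis genes were higher in 7 of 11 cases (median 0.06). Odc1, the first enzyme of polyamine synthesis, had 15829, 13092 and 9623 (-0.44), but its other probe sets gave -0.22 and 0.26.

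Antioxidant genes had a median of 0.05 (20 of 32 higher), and 4 were at least 1.2-fold higher (6.52% of all genes). Gpx3, the secreted glutathione peroxidase, had 6501 (Control), 3951 (HF) and 5525 (HF + SFC) (0.48). Gstm1, a glutathione transferase, had 4337, 2638 and 3655 (0.47), although its other probe sets gave 0.25 and -0.28, and Txnrd1, thioredoxin reductase, had 2407, 1741 and 2225 (0.35). These genes were lowest in HF. The extracellular superoxide dismutase gene Sod3 had 239.8, 465 and 279 (-0.74), through HF alone. The metal-binding proteins Mt1 (2214, 2777 and 2106, -0.40) and Mt2 (1326, 2157 and 1853, -0.22) had their highest signal in HF. They belong to a list of 23 metallothionein and glucocorticoid-responsive genes with 10 higher and 13 lower (median -0.02), in which Mt1 had the lowest ratio, followed by the cell cycle inhibitor Cdkn1a (1304, 1113 and 942, -0.24).

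Genes of the translation apparatus were higher by small amounts. Ribosomal protein genes had a median of 0.10 (33 of 41 higher), and none reached 1.2-fold; after quantile normalization 25 were higher and 16 lower with a median of 0.03. Rpl41 had 22700.2, 20775 and 23974 (0.21) and Rps6 had 1152, 1158 and 1069.7 (-0.11). Translation factors were higher in 33 of 45 cases (median 0.04) and cytosolic tRNA ligases in 16 of 22 (0.07). Proteasome genes had a median of 0.03 (24 of 40 higher), autophagy and lysosome genes 0.05 (22 of 34) and splicing factors -0.006 (24 of 48). Among the latter Srsf10 was lower on both bright probe sets, with 1066, 1339 and 936 on the brightest (-0.52, and -0.86 on the other). In the list of atrophy and ubiquitin genes 17 of 31 were higher (median 0.02), and Trim63, the muscle ligase MuRF1, had 22109, 19731 and 17039 (-0.21). Sesn1, an inhibitor of mTORC1, had 1359, 1876 and 1182 (-0.67), but -0.03 and -0.08 on its other probe sets.

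Among 17 circadian genes 10 were higher and 7 lower, and 4 were at least 1.2-fold higher (6.52% of all genes). Dbp, a clock output factor, had 2163 (Control), 2500.1 (HF) and 3510.3 (HF + SFC) (0.49), and 1364, 1594 and 2251 on its other probe set (0.50). This was the highest ratio among genes whose bright probe sets all pointed up, ranked by the probe set nearest to 0. Usp2, a clock-controlled deubiquitinase, had 8065, 7957 and 10487 (0.40, and 0.23 on its other probe set), Bhlhe40 had 3010.0, 2954 and 3885 (0.40) and Per1, a core clock repressor, had 850.4, 713 and 872 (0.29). Of the core clock activators, Arntl had 892, 819.8 and 776 (-0.08), and Clock had 1098, 1043 and 932 on its brightest probe set (-0.16) but was higher on its other bright probe sets (0.17 and 0.26).

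Other genes with large differences fell in no list. Polr3k, a subunit of RNA polymerase III, had the highest ratio of all, with 2779 (Control), 1003 (HF) and 2697 (HF + SFC) (1.43), but log2 ratios between -0.31 and 0.09 on its other bright probe sets. Next highest were Gm13306 (371, 193 and 397, 1.04) and Armcx4 (533, 220 and 448, 1.03), both through HF + SFC alone. Polr3f, another subunit of RNA polymerase III, had 233, 244 and 433 (0.83), through HF + SFC alone. The chromatin reader Zmynd8 had 628, 369.9 and 635 (0.78), also through HF + SFC alone, so it had to differ. The transcription factor Camta1 (448, 421 and 722, 0.78) passed on both arrays. Zmynd8 and Camta1 each had 1 bright probe set. Among genes higher on all their bright probe sets were Ano6, a lipid scramblase (1465, 1307 and 1889, 0.53 and 0.34), the histone methyltransferase Kmt2a (534, 389.8 and 520.1, 0.42 and 0.56) and Dst, a cytoskeletal linker (9602, 7524 and 9247, 0.30 and 0.65). On the lower side Ss18l1 had 652, 747 and 317 (-1.24), through HF alone. Tatdn1 had 1760.4, 2679 and 1352 (-0.99) but -0.03 and 0.12 on its other probe sets. Usp53 had 574, 1266 and 661 (-0.94) and Fam219a had 690.2, 1318 and 724 (-0.86), with 1 bright probe set each. Rer1, which sorts proteins between the endoplasmic reticulum and the Golgi apparatus, had 2279, 2621 and 1731 (-0.60, and -0.55 on its other probe set).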

How the data were processed

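RNA of gastrocnemius was measured on Affymetrix GeneChip Mouse Genome arrays, 1 array per group of Control, HF and HF + SFC. The authors deposited MAS5 signal intensities that are linear and share a trimmed mean of 500.0 (2% trimmed from either end); MAS5 is named without a version in the submitters' processing notes. With 1 array per group, the arrays' number limits how precise any value is.

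Controls made up 64 of 45101 probe sets; 34945 of the rest carried 1 gene symbol, 932 several and 9160 none, and 34741 had a gene ID in the RefSeq table of GRCm38.p6, which updated their symbols. Log2 ratios came from the deposited values with no offset. The mitochondrial list was written from textbook knowledge and is incomplete, since genes such as Ethe1 and Mmaa stayed among the 6475, and 41 gene lists were written likewise. Members, lists and rules were chosen with earlier results of these data known. Named genes were the 12 highest and 12 lowest ratios, the 10 highest and 10 lowest among genes whose bright probe sets shared a direction, up to 4 at each end of each list, each member of the iron list, and genes a result turned on, which were chosen after their values were seen (such as Bcl6, Fos, Ghr and Mybph). Some of the genes under these rules are given only by the counts of their lists, and some that are on no list are not named. Alternatives were the mean of bright probe sets, quantile normalization, median centring, an offset of 50, other signal limits, leaving out probe sets marked as binding several transcripts, and thresholds of 1.2-fold and 2-fold. Steps were tested on simulated data in which all probe sets of a changed gene moved together. This was a check of the code and not of the fold thresholds. Promoter windows came from RefSeq. The software was matplotlib 3.10.9, pandas 2.3.3, numpy 2.4.6 and Python 3.11.15.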

Additional observations from a re-analysis of the deposited data

How the results depend on the processing

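The counts of 33 genes at least 1.5-fold higher and 58 lower were 19 and 38 with an offset of 50, 9 and 32 where both arrays had to pass the signal limit, 596 and 676 of 11742 genes where the limit was the array median, 422 and 461 at 1.2-fold, and 3 and 4 at 2-fold. They stayed within 1.5 times under the other alternatives. The slow fibre median of 0.36 was 0.29 with the mean of bright probe sets, and after quantile normalization the fast fibre median of 0.20 was 0.0223 and the ribosomal protein median of 0.10 was 0.0333. With the array median as the limit the iron handling median of -0.09 was -0.14 (-0.05 with the mean of bright probe sets and where both arrays had to pass) and the adipocyte median of -0.12 was -0.22, with more genes counted. The median of 17 muscle-secreted factors, -0.07, was 0.0135 with the mean of bright probe sets. Of 1024 values of 149 named genes under the alternatives 987 moved by less than the within-gene SD of 0.19, 32 moved by more, and 5 went from past this SD to the other sign. These 5 came from leaving out probe sets marked as binding several transcripts, which left other probe sets of Cited4 (-0.34), Cryab (-0.65), Hyou1 (-0.44), Polr3k (-0.31) and Tatdn1 (0.12). Counting changes of sign from any size there were 19, in 17 genes: 9 with those probe sets left out, 5 with the mean of bright probe sets (Clock, Ghr, Il6st, Slc2a4 and Stat5b), 4 after quantile normalization and 1 with median centring. Of the medians of 40 lists, 9 changed sign in this way, of which that of the muscle-secreted factors had been the furthest from 0. No paired analysis was possible because each group had 1 pooled sample. Median centring moved the median of all genes from 0.01 to -0.002. The single array per group limits how precise each value is.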

Other observations

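Among 890 bright probe sets with no gene symbol or several, which entered no gene, 6 had a ratio of HF + SFC to HF of 1.5-fold or more, and 16 were as far below HF.

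Of 416 genes on the mitochondrial list that passed the signal filter, 274 had the higher signal in HF + SFC and the median was 0.05 on the log2 scale, equal to that of the brightest bin of the other genes.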
